A study of Mus musculus with 33 samples.

Results

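Undifferentiated ΔK9.2 embryonic stem (ES) cells were compared with undifferentiated wild-type E14Tg2a ES cells by RNA sequencing, with 3 replicates of each line on day 0, which makes 6 of the 33 libraries in the expression table. The libraries were taken by line and day from the labels. E14Tg2a is a mouse ES cell line of 129/Ola origin. ΔK9.2 is 1 of 2 clones derived from it (ΔK9.1 is the other) in which CRISPR/Cas9 removed, on both alleles, the stretch between the upstream enhancer and the promoter of *Nanog* that carries histone H3 trimethylated on lysine 9 (H3K9me3). ΔK9.2 is a single clone, described as karyotypically normal in the study's methods, so the deletion and anything else particular to the clone cannot be told apart in this comparison. Both lines were grown on gelatine in serum with the cytokine LIF, and the later libraries of the series come from days 4, 6 and 8 of embryoid body (EB) differentiation. The comparison asks how the transcriptome differs before differentiation starts.

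*Nanog* codes for a homeodomain transcription factor that holds ES cells in the naive pluripotent state, together with *Pou5f1* (Oct4), *Sox2*, *Esrrb* and the Klf factors. In serum and LIF its level varies from cell to cell, and cells in which it is low are prone to differentiate. H3K9me3 is a mark of repressed chromatin, set by methyltransferases such as Setdb1 and the Suv39h enzymes and bound by HP1 proteins, and it is better known from repeats than from active pluripotency genes.

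The stretch of DNA that directly precedes the *Nanog* start site is shown because it is the promoter next to the deleted region. It spans chr6:122707239-122707488 on the plus strand of GRCm38.p6 and was taken from RefSeq, 5′ to 3′. Capitals mark the joined octamer and Sox element, the letters TTTGCATTACAATG, at which Oct4 and Sox2 are known to bind.
*Nanog* promoter: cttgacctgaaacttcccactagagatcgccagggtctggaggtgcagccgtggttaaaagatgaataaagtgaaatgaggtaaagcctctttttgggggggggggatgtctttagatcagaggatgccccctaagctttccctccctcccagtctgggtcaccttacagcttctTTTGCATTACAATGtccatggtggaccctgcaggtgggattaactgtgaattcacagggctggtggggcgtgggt
The 14 letters start 75 bases before the start site. Searched on both strands, the 14 letters stood in the 250 bases before the start of 1 of 27025 genes in the RefSeq table, *Nanog* itself. They had been read from this promoter, so that match was given in advance. The octamer part TTTGCAT alone stood in 4.65% of genes, and a shorter word is found more often whatever its function.

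Values are TPM, the abundance of a gene's transcripts scaled to a fixed total within each library, as estimated by the authors with RSEM. The listed genes summed to between 994284 and 995830 TPM in the 6 libraries, and between 13262 and 13905 genes reached 1 TPM. Read numbers cannot be had from TPM, so depth is unknown and the replicates set the precision. The median SD between replicates was 0.20 in log2 units. The spread was estimated over the 9 undifferentiated libraries, which include the 3 of ΔK9.1. ΔK9.2 being 1 clone, p-values measure the spread between libraries of a line, not between clones. Fold changes are differences of log2(TPM + 1), ΔK9.2 minus E14Tg2a, and this scale understates the change of low genes. A gene was called where limma with Benjamini-Hochberg adjustment over all 14504 genes tested gave an adjusted p under 0.05 and the log2 fold change passed 0.3 in either direction. The lines were assayed in parallel, and libraries of the same replicate number deviated together (correlations of 0.23, 0.20 and 0.25 for the 3 ΔK9.2 and E14Tg2a pairs, against -0.05 to -0.18 for other pairs of libraries), so each result is given without and, where it alters the call, with the replicate number as a block. Deviations were taken from the mean of each line, which pulls the values of other pairs below 0, so those are no separate check.

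Differences between the undifferentiated lines were small. The median absolute log2 fold change was 0.14 over all genes tested. In simulated data the fit without the block called 80 of 100 genes changed by 1 log2 unit. It called 13 of 100 genes given a smaller change, so few calls do not mean few differences. Without the block 12 genes were called in the data. Of these, 1 was higher (0.00689% of all genes tested) and 11 were lower (0.0758%), and 9 of the 11 lie on 1 segment of chromosome 14. With the block, 88 genes were higher (0.607%) and 86 lower (0.593%), including all 12. Those 174 genes (1.2%) had a median absolute log2 fold change of 0.62, and 15 of them passed 1. In 76 of the 88 and 77 of the 86 the libraries of the lines did not overlap, where 8.47% of all genes tested did not overlap in the higher direction and 4.74% in the lower. The same libraries gave the calls, so this describes the called genes and adds no separate support for them. Rescaling each library by its median ratio moved the blocked counts to 70 higher and 103 lower. The median log2 fold change of all genes was 0.05 as deposited and 0.01 after that rescaling.

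These counts depend strongly on single libraries and on which libraries set the spread. In a fit of only the 6 libraries compared, 1 gene was higher and 1 lower without the block. With the block that fit called 2 higher and 3 lower. E14Tg2a replicate 1 stood apart from the other wild-type libraries: markers of primitive endoderm summed to 983 TPM in it and to 230 TPM in the lowest E14Tg2a library. Without E14Tg2a replicate 1, 69 genes were higher and 77 lower in the fit without the block. With the block, leaving out all libraries numbered 1 gave 440 higher and 251 lower genes, whereas 1 higher and 2 lower genes were called without those numbered 2 and none (0 higher and 0 lower) without those numbered 3. At unadjusted p under 0.05, 895 genes were higher and 480 lower without the block, and 1880 and 920 with it.

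**Figure D1:**
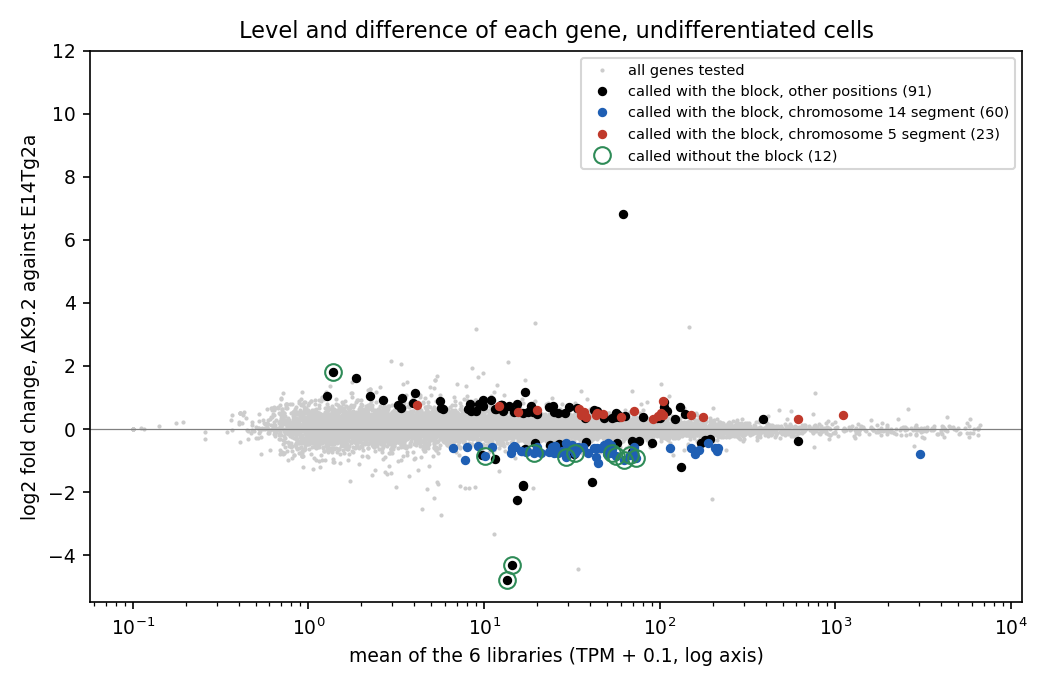
Mean of the 6 libraries (TPM + 0.1, log axis) against the log2 fold change of ΔK9.2 over E14Tg2a on log2(TPM + 1), for the 14504 genes tested. Filled points are the 174 genes called with the replicate number as a block, 60 of them in the chromosome 14 segment and 23 in the chromosome 5 segment, and rings mark the 12 genes called without it.

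*Nanog* itself was modestly more abundant in the clone. Its level was 326, 338 and 368 TPM in the E14Tg2a libraries and 412, 439 and 426 TPM in the ΔK9.2 libraries, so all 3 mutant libraries lay above all 3 wild-type ones. The log2 fold change of 0.31 (standard error 0.07) missed the adjusted threshold in limma without the block (adjusted p = 0.153) and passed it with the block (adjusted p = 0.0402, standard error 0.05). In the other clone *Nanog* stood at 456, 460.4 and 486 TPM, and the direct difference of ΔK9.2 from ΔK9.1 was -0.14 (standard error 0.07, adjusted p = 0.288 from limma). Without E14Tg2a replicate 1 the log2 fold change was 0.27, with an adjusted p from limma of 0.105. The gene lies on chromosome 6 at chr6:122707489-122714633 of mm10.

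None of the other 9 tested genes of the *Nanog* neighbourhood was called in either fit. They ranged from a log2 fold change of -0.47 for *Mfap5*, a low gene of the extracellular matrix, to 0.63 for *Dppa3*, a germline and naive pluripotency gene. *Dppa3* was at 31.3, 17.2 and 18.3 TPM in E14Tg2a and at 17.0, 39.6 and 56.8 TPM in ΔK9.2, and the lines overlapped. *Slc2a3*, the neighbouring glucose transporter and the most abundant of them, measured 698, 546 and 511 TPM in E14Tg2a and 577, 604 and 495 TPM in ΔK9.2, again with overlap. *Gdf3*, a TGF-beta family ligand that lies close by, differed by -0.14 with overlapping libraries.

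Most naive pluripotency genes had, like *Nanog*, a difference above 0, and *Gbx2* was the main exception. Of the 16 naive genes tested, 13 had a log2 fold change above 0, against 61.1% of all genes tested, and the median was 0.22 against 0.05 over all genes (12 of the 16 and 0.17 after rescaling). None was called without the block, and 1 was called higher and 1 lower with it, where 0.607% and 0.593% of all genes were. *Tcl1*, an activator of Akt signalling that promotes self-renewal, measured 90.3, 92.5 and 80.4 TPM in E14Tg2a and 119.7, 108 and 108 TPM in ΔK9.2. The lines did not overlap, and *Tcl1* was called only with the block, at a log2 fold change of 0.35 (adjusted p = 0.0419 in limma, against 0.216 without it). *Esrrb*, an orphan nuclear receptor and direct partner of Nanog, was at 263, 258 and 224 TPM in E14Tg2a and at 317, 312 and 272 TPM in ΔK9.2. Its log2 fold change of 0.27 had an adjusted p of 0.0438 in limma with the block but did not reach the threshold of 0.3. *Klf2*, which responds to MEK inhibition and supports the naive state, lay between 141 and 163 TPM in E14Tg2a and between 176 and 191 TPM in ΔK9.2 and was not called (log2 fold change 0.28, adjusted p = 0.239 in limma).

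*Gbx2* is a homeobox gene downstream of LIF and STAT3. It measured 43.6, 40.9 and 38.5 TPM in E14Tg2a and 30.7, 23.6 and 17.7 TPM in ΔK9.2, all 3 mutant libraries being lower. The log2 fold change of -0.78 was called only with the block (adjusted p = 0.0402 in limma, against 0.159 without it). In ΔK9.1 the gene was lower still, at 12.01, 10.2 and 10.6 TPM, and the clones differed by 1.04 without the block (adjusted p = 0.028, limma).

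The general pluripotency factors did not follow. Over the 12 core genes the median log2 fold change was 0.00, with 6 above and 6 below 0, and *Nanog* was the 1 member called with the block. *Pou5f1* was at 1602, 1631 and 2049.5 TPM in E14Tg2a and at 1674, 1652 and 1865 TPM in ΔK9.2 (log2 fold change -0.02). *Sox2* overlapped as well, at 305, 351 and 328 TPM against 358, 379 and 345 TPM (0.14). The 9 genes of the LIF and STAT3 pathway had a median of 0.01 and the 16 FGF-ERK genes one of -0.08, and no member of either list was called in either fit. Formative and primed epiblast genes had a median of 0.21 over the 10 tested, with none called. It was -0.22 in the first replicate pair, 0.53 in the second and 0.49 in the third, and 0.41 without E14Tg2a replicate 1 or 0.51 without both libraries numbered 1. *Otx2*, the formative regulator, measured 25.3, 16.3 and 13.4 TPM in E14Tg2a and 23.6, 19.99 and 19.6 TPM in ΔK9.2.

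**Figure D2:**
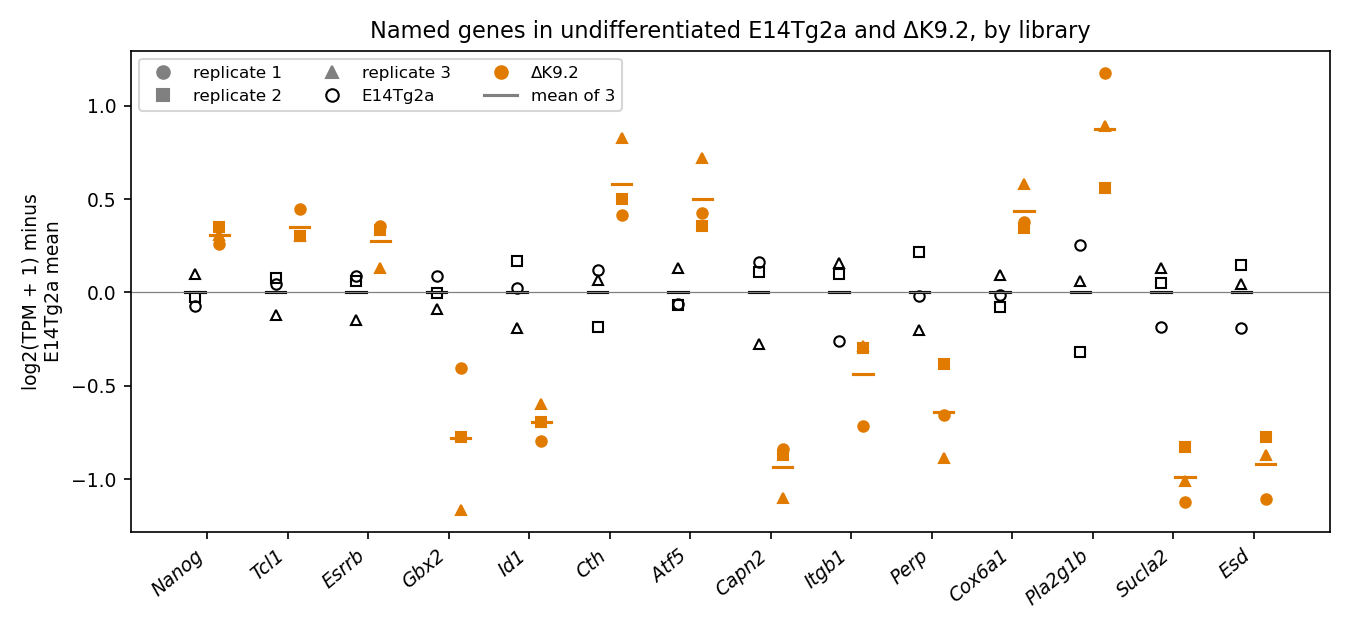
Level of 14 named genes on log2(TPM + 1), minus the E14Tg2a mean of the gene, for each of the 3 E14Tg2a libraries (open) and 3 ΔK9.2 libraries (filled), with marker shape for the replicate number and a bar for the mean of 3. Of the genes shown, *Esrrb* was not called with the block and the other 13 were, and the *Nanog* points of ΔK9.2 all lie above those of E14Tg2a.

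Targets of the transcription factor ATF4, which is translated under amino acid shortage or stress of the endoplasmic reticulum, lay above 0 as a group. All 19 tested genes had a log2 fold change above 0 (17 after rescaling) and the libraries of 11 did not overlap, with a median of 0.20 against 0.05 over all genes. Over all genes tested, 61.1% lay above 0 and 8.47% were higher without overlap. The median was 0.20 in the first replicate pair, 0.23 in the second and 0.20 in the third, and 2 of the 19 were called with the block, where 0.607% of all genes were called higher, and none without. *Cth*, the enzyme that makes cysteine from cystathionine, measured 95.5, 77.1 and 91.9 TPM in E14Tg2a and 117, 125 and 157 TPM in ΔK9.2, a log2 fold change of 0.58 (adjusted p = 0.0438 in limma with the block, 0.22 without). *Atf5*, a related transcription factor, was at 22.6, 22.5 and 26.0 TPM against 32.1, 30.6 and 39.6 TPM, a log2 fold change of 0.50 (adjusted p = 0.0424 with the block in limma, 0.165 without). For *Atf4* itself E14Tg2a gave 257, 251 and 281 TPM and ΔK9.2 306, 310.4 and 360.1 TPM, which did not overlap but were not called (0.30, adjusted p = 0.0668 in limma with the block). *Chac1*, which degrades glutathione, had the largest log2 fold change of the list at 0.74, from 22, 11.5 and 17.1 TPM to 25.9, 24.6 and 34.2 TPM, and was not called. In ΔK9.1 the median of the list against the same E14Tg2a libraries was 0.23.

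*Capn2*, *Itgb1* and *Id1* were among the genes called lower with the block, of which the rule for named genes gave *Capn2* and the others were picked after their values were seen. *Capn2*, a calcium-dependent protease of focal adhesions, measured 17.1, 16.5 and 12.4 TPM in E14Tg2a and 8.05, 7.86 and 6.54 TPM in ΔK9.2. Its log2 fold change of -0.94 had an adjusted p of 0.017 in limma with the block and 0.0681 without, and it was called without the block once E14Tg2a replicate 1 was left out (-0.85, adjusted p = 0.0475). *Itgb1*, the integrin beta 1 chain that binds the extracellular matrix, was at 85.5, 110.2 and 115 TPM against 62, 83.4 and 83.8 TPM. The lines did not overlap for *Itgb1* by a narrow margin, and within each replicate number the clone was lower (log2 fold change -0.43, adjusted p = 0.0179 with the block and 0.402 without, limma). *Id1*, a target of BMP signalling that inhibits differentiation factors, was at 66.3, 73.2 and 56.9 TPM in E14Tg2a and at 37.1, 39.9 and 42.7 TPM in ΔK9.2. It was called with the block only, at -0.70 (adjusted p = 0.0419 in limma, 0.0989 without).

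The p53 targets *Perp*, *Plk2* and *Phlda3*, picked in the same way, were also called lower with the block. *Perp*, a membrane protein gene of cell death and epithelial junctions, went from 20.4, 24.3 and 17.9 TPM to 12.8, 15.6 and 10.8 TPM, a log2 fold change of -0.64. *Plk2*, a stress-induced kinase, differed by -0.47 and *Phlda3*, a repressor of Akt, by -0.43, and neither overlapped between the lines. None of the 26 genes of the cell cycle and p53 pathway list, which does not hold these 3, was called in either fit, and their median was -0.04. *Cdkn1a*, the p21 inhibitor of cyclin-dependent kinases, measured 54.4, 83.8 and 65.5 TPM in E14Tg2a and 57.3, 79.5 and 54.8 TPM in ΔK9.2.

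For some genes the replicate numbers differed together while the lines overlapped, and these were called only with the block. *Platr15* and *Lncenc1* were picked after their values were seen. *Platr15*, a long noncoding RNA of pluripotent cells, was at 20.3, 101 and 71.4 TPM in E14Tg2a and at 7.72, 31.0 and 16.2 TPM in ΔK9.2, which is lower in every pair (-1.68, adjusted p = 0.00845 in limma with the block, 0.487 without). *Lncenc1*, another noncoding RNA of naive cells, measured 151, 84.2 and 71.4 TPM against 188, 146 and 142 TPM (0.69, adjusted p = 0.0438 with the block and 0.43 without, limma). *Vegfa*, the angiogenic growth factor and a hypoxia target, was the 1 gene of 21 in the glycolysis and hypoxia list to be called with the block, at 0.35, where 0.607% of all genes were called higher, and its list had a median of 0.02.

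The 12 genes with the largest increases by the naming rule were mainly low or poorly annotated. *Gm14303*, a processed pseudogene, was listed at 0 in all 3 E14Tg2a libraries and at 199, 88.6 and 82.2 TPM in ΔK9.2. In ΔK9.1 it was listed at 0, 40.4 and 0 TPM. *Gm29434*, an antisense transcript below 5 TPM and so not among the 12, was at 0 in every E14Tg2a library and at 2.57, 2.75 and 2.32 TPM in ΔK9.2, and it was the 1 gene called higher without the block (adjusted p = 0.00816, limma). Levels of such transcripts are uncertain, as their reads may be shared with near-identical copies or an overlapping gene, and no fold is given for a gene listed at 0. The other 11 of the 12 ranged in log2 fold change from 0.76 for *Napsa*, an aspartic protease, to 1.18 for *Arl14epl*. *Tmem40*, a transmembrane protein gene, measured 7.89, 4.59 and 6.98 TPM in E14Tg2a and 11.6, 12.6 and 14.8 TPM in ΔK9.2 (0.93). *Ubxn11*, a UBX domain protein gene, was at 11.2, 9.23 and 11.9 TPM against 24.3, 17.5 and 17.3 TPM (0.80). *Rpl10l*, a retrocopy of a ribosomal protein gene, was at 105, 62 and 59.6 TPM in E14Tg2a and at 153, 118 and 135 TPM in ΔK9.2 and shares sequence with its parent gene. *Kif26a*, an unconventional kinesin, measured 7.52, 7.08 and 4.86 TPM against 11, 14.5 and 10.6 TPM, without overlap.

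Among the lower genes, *Gm26448*, a small nucleolar RNA, and *Gm12112*, a processed pseudogene, were listed at 0 in every ΔK9.2 library on day 0. In E14Tg2a *Gm26448* stood at 21.4, 34.3 and 24.9 TPM and *Gm12112* at 66.5, 9.83 and 9.67 TPM. Both were also listed at 0 in the 3 ΔK9.1 libraries. The remaining 9 genes called lower without the block all lie on chromosome 14. *Gm26917*, an abundant noncoding RNA, was called lower with the block, at 193, 219 and 136 TPM in E14Tg2a and 108, 66.9 and 64.4 TPM in ΔK9.2 (-1.20, adjusted p = 0.0438 in limma with the block, 0.104 without).

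Genes on a long segment of chromosome 14 were lower in ΔK9.2 almost without exception. Over 50 to 80 Mb of mm10, 155 genes averaging 5 TPM or more had a median log2 fold change of -0.61 relative to all genes, and 152 of them lay below 0. The bounds of the segment were set after the values along the chromosome were seen. The median was -0.53 in the first replicate pair, -0.62 in the second and -0.67 in the third, and 151 of 155 lay below 0 without E14Tg2a replicate 1, at a median of -0.69. Of the 236 tested genes of the segment, 60 were called lower with the block and none higher, against 0.593% and 0.607% of all genes tested. The difference was widest toward its distal end, where the window from 70 to 80 Mb had a median of -0.74 and that from 60 to 70 Mb one of -0.61, the lowest of 186 windows of 10 Mb. The highest windows were those from 110 to 120 Mb of chromosome 5, at 0.28, and from 140 to 150 Mb of chromosome 4, at 0.13. Outside the segment, the other 180 genes of the chromosome were at -0.12, 0.04 and -0.03 in the ΔK9.2 libraries and at -0.12, 0.06 and 0.07 in the E14Tg2a libraries, relative to the wild-type mean.

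*Sucla2*, a subunit of succinyl-CoA synthetase in the citric acid cycle, is at chr14:73525319-73596142. It measured 73.5, 86.7 and 91.5 TPM in E14Tg2a and 37.9, 46.7 and 41.0 TPM in ΔK9.2, about 1 log2 unit apart with no overlap (-0.98, adjusted p = 0.0168, limma). *Esd*, an esterase that clears formaldehyde conjugates, went from 83.1, 105.0 and 97.9 TPM to 43.6, 55.1 and 51.5 TPM (-0.92, adjusted p = 0.0223). *Med4*, a subunit of the Mediator complex, was at 67.9, 80.05 and 70.4 TPM against 38.0, 41.8 and 38.6 TPM (-0.86). *Xpo7*, a nuclear export receptor, and *Ngdn*, a ribosome assembly factor, were lower by 0.88 and 0.76 on the log2 scale, with adjusted p of 0.0101 for each in limma. *Parp2*, which signals DNA breaks by ADP-ribosylation, was at 83.9, 91.9 and 86.0 TPM against 45.7, 55.4 and 44.5 TPM (-0.84, adjusted p = 0.0168, limma). *Itm2b*, *Mtrf1* and *Wbp4* complete the 9, at -0.77, -0.87 and -0.76.

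Further genes of this segment were called lower with the block. *Psme1* and *Psme2*, both subunits of the proteasome activator PA28, were lower by 0.80 and 1.07 on the log2 scale, and *Psmb5*, a catalytic subunit of the proteasome, by 0.65. *Tpt1*, an abundant translation-associated protein, went from 3137, 3886 and 4583 TPM to 1985, 2283 and 2328 TPM (-0.80, adjusted p = 0.0124 in limma with the block, 0.0681 without). *Apex1*, an endonuclease of base excision repair, and *Prmt5*, an arginine methyltransferase needed in ES cells, were lower by 0.44 and 0.50. *Tdh*, the threonine dehydrogenase on which mouse ES cells depend, was lower by 0.61. *Rb1*, the retinoblastoma tumour suppressor, was not called, at 8.86, 8.93 and 7.66 TPM in E14Tg2a and 5.41, 5.87 and 3.65 TPM in ΔK9.2 (adjusted p = 0.0511 in limma with the block). Apart from *Psme2*, these genes were named after their values were seen.

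**Figure D3:**
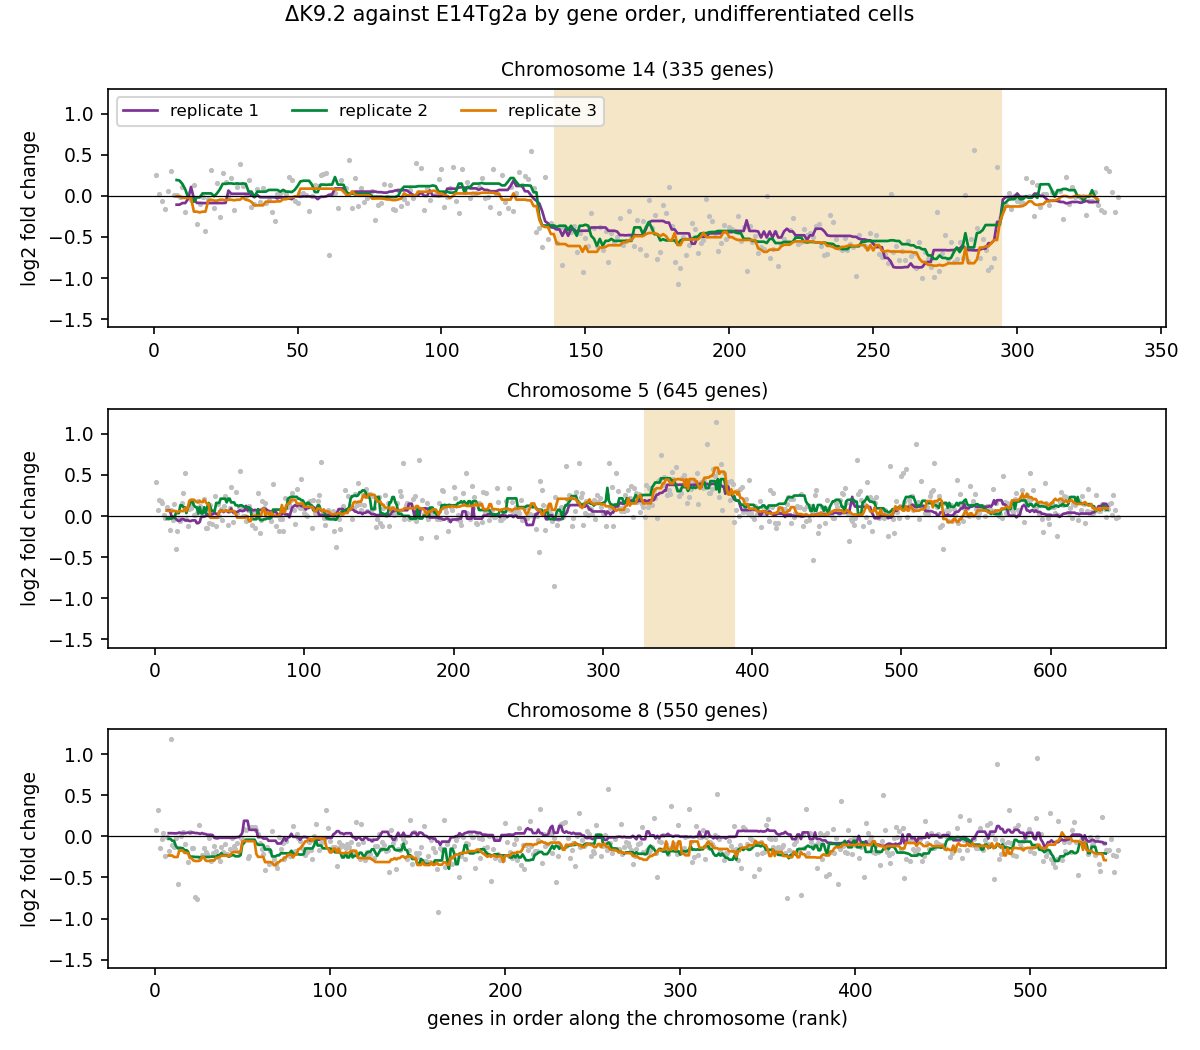
Log2 fold change of ΔK9.2 over E14Tg2a for genes averaging 5 TPM or more, in order along chromosomes 14 (335 genes), 5 (645 genes) and 8 (550 genes). Grey points are genes, lines are running medians within each replicate number and shading marks the chromosome 14 and chromosome 5 segments, where all 3 lines leave 0 together. On chromosome 8 the line of replicate 1 runs near 0 and the other two run below it.

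A shorter segment of chromosome 5 was higher. Between 112 and 118 Mb of mm10, 58 of 59 genes averaging 5 TPM or more lay above the median of all genes, and their median was 0.33 relative to it. The replicate pairs gave 0.37, 0.32 and 0.38, and without E14Tg2a replicate 1 the median was 0.34 with 57 of 59 above 0. The neighbouring steps of 2 Mb had medians of 0.11 before the segment and 0.02 after it. Here too the bounds were chosen after the values were seen. Of 86 tested genes, 23 were called higher with the block and none lower, against 0.607% and 0.593% of all genes tested, while none was called without it.

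*Cox6a1*, a subunit of cytochrome c oxidase and the most abundant of the 23, measured 928, 886 and 998 TPM in E14Tg2a and 1218, 1189.9 and 1399 TPM in ΔK9.2 (0.43, adjusted p = 0.0173 in limma with the block, 0.0833 without). *Pla2g1b*, a secreted phospholipase, was at 86.8, 58.0 and 75.7 TPM against 165, 108 and 135 TPM, and its 0.88 had the lowest adjusted p of the segment (0.00172 with the block, 0.165 without, limma). *Coq5*, a methyltransferase of coenzyme Q synthesis, went from 37.5, 33.7 and 35.7 TPM to 52.5, 52.3 and 49.8 TPM (0.52, adjusted p = 0.0198 with the block, 0.054 without). The other genes called there included *Mvk* and *Mmab*, which share a divergent promoter, at 0.45 and 0.54, the uracil glycosylase *Ung* at 0.46 and the demethylase *Alkbh2* at 0.47. *Coq5*, *Mvk*, *Mmab*, *Ung*, *Alkbh2* and *Cox6a1* were named after their values were seen.

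Outside both segments 65 genes were called higher and 26 lower with the block, and 1 and 2 without it. The segments thus held 83 of the 174 blocked calls.

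Whole chromosomes differed less, and in part only in some libraries. Chromosome 8 had the lowest median after chromosome 14, at -0.17 relative to all genes, with 471 of 550 genes below 0. That difference was -0.02 in the first replicate pair and -0.25 and -0.24 in the others, and E14Tg2a replicate 1 itself stood at -0.19 on this chromosome where the other E14Tg2a libraries stood at 0.11 and 0.08. The ΔK9.2 libraries were at -0.20, -0.14 and -0.16. Chromosomes 6, 19 and 1 had medians of -0.11, -0.10 and -0.10, and on each the first pair was nearest to 0. Chromosome Y, with 6 genes, stood at 0.24 and the mitochondrial genome, with 13, at 0.10, and all other chromosomes lay between -0.003 and 0.05.

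**Figure D4:**
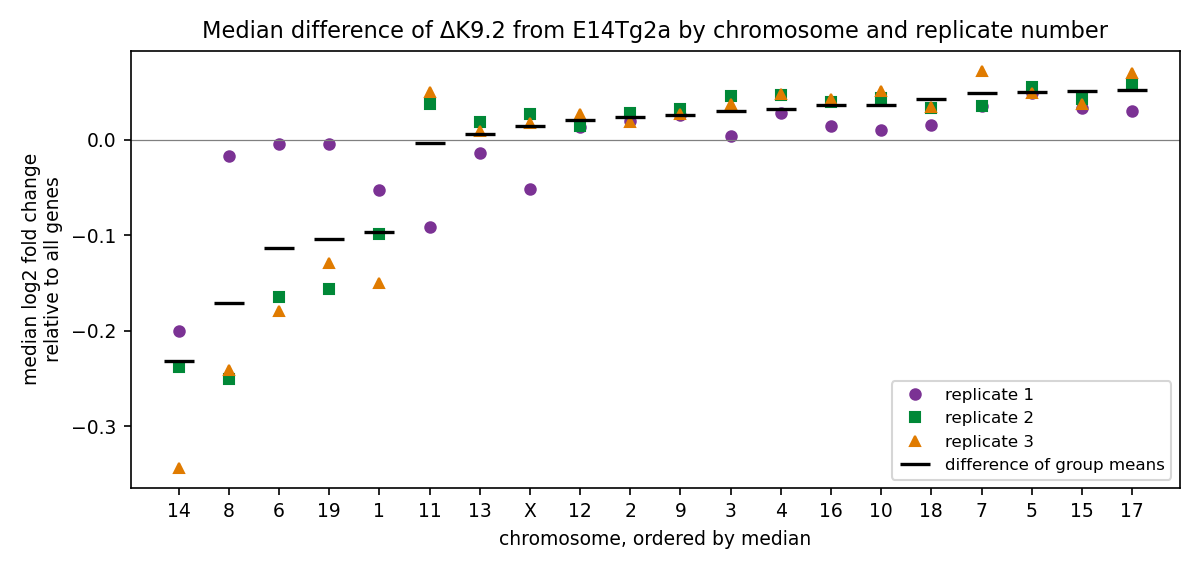
Median log2 fold change of ΔK9.2 over E14Tg2a by chromosome, relative to the median of all genes, for each replicate pair (points) and for the difference of the group means (bars), without chromosome Y and the mitochondrial genome. Chromosomes 14, 8, 6, 19 and 1 lie below 0 in all 3 pairs, and on 8, 6 and 19 the first pair is within 0.02 of 0.

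Regional differences were seen again in libraries of differentiating cells. Relative to the E14Tg2a mean of each day, the chromosome 14 segment of ΔK9.2 was between -0.60 and -0.44 on day 4, at -0.85 and -0.83 on day 6 and between -0.79 and -0.70 on day 8. E14Tg2a libraries spanned -0.30 to 0.24 over the same days. The chromosome 5 segment of ΔK9.2 stayed between 0.28 and 0.45 on days 4 to 8, above every E14Tg2a library, of which the highest was at 0.12. Chromosome 8 was at -0.24 to -0.18 in ΔK9.2 on day 4 and at -0.15 to -0.14 on day 8, and E14Tg2a replicate 1 was again the lowest wild-type library, at -0.19 and -0.13. On day 6, for which there is no library numbered 1, ΔK9.2 was at -0.22 and -0.23 and E14Tg2a at 0.06 and -0.06. In ΔK9.2 chromosome 6 averaged -0.12, -0.03 and 0.04 on days 4, 6 and 8, and chromosome 19 averaged -0.11, -0.001 and 0.04. Chromosome 1 averaged -0.06, -0.19 and -0.16.

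**Figure D5:**
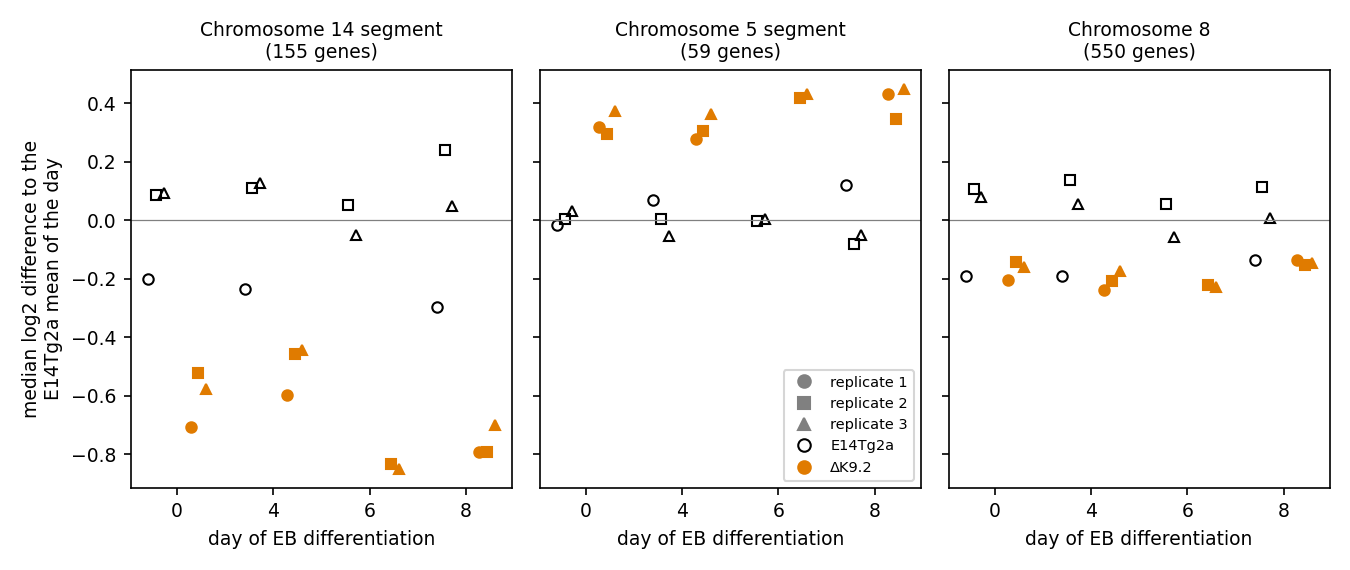
Median log2 difference to the E14Tg2a mean of the day for the chromosome 14 segment (155 genes), the chromosome 5 segment (59 genes) and chromosome 8 (550 genes), in each E14Tg2a (open) and ΔK9.2 (filled) library on days 0, 4, 6 and 8 of EB differentiation, with marker shape for the replicate number. The segments separate the lines on every day, and on chromosome 8 E14Tg2a replicate 1 lies among or next to the ΔK9.2 libraries.

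The single genes were followed in the same way, in a fit over all 33 libraries with the same call rule. Of the 12 genes called on day 0 without the block, 11, 11 and 10 kept their direction on days 4, 6 and 8, and 8, 9 and 9 of them were called there. Over all genes 0.283%, 1.14% and 9.46% were called lower on those days, and 0.0414%, 0.269% and 5.23% higher. Log2 fold changes lay below 0 for 58.7%, 53.6% and 53% of all genes, and above 0 for 40.8%, 45.6% and 46.2%. The 60 blocked calls of the chromosome 14 segment kept their direction in 59, 60 and 59 cases, and the 23 of chromosome 5 in 23, 22 and 22. On day 8, 1 of the 60 was called in the opposite direction. Of the 91 blocked calls elsewhere, 85 kept their direction on day 4 and 65 on each of days 6 and 8, and 2, 3 and 13 were called in it. In the opposite direction 0, 1 and 1 were called. *Capn2* was called lower on days 4 and 6, at -1.13 and -1.54 (adjusted p = 0.0248 and 0.00359, limma). *Itgb1* was at -0.69, -0.70 and -0.89 and was called on day 8 (adjusted p = 0.00256, limma).

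Markers of another cell type were highest in E14Tg2a replicate 1. Primitive endoderm, the extra-embryonic layer that ES cells can form in culture, is marked by *Gata4*, *Gata6* and *Sox17* and by basement membrane genes such as *Sparc*, *Col4a1* and *Lama1*. Of the 18 tested markers, 17 had a log2 fold change below 0, where 38.7% of all genes did, and the median was -0.46, but no member was called and none separated the lines. *Sparc* was at 297, 75.7 and 74.3 TPM in E14Tg2a and at 163, 80.9 and 68.0 TPM in ΔK9.2, and *Gata4*, which lies within the chromosome 14 segment, at 13.0, 1.18 and 1.49 TPM and 5.63, 0.33 and 0.752 TPM. *Gata6* showed 11.8, 0.938 and 2.08 TPM in E14Tg2a and 7.44, 0.297 and 0.523 TPM in ΔK9.2. In both lines replicate 1 was thus the highest, and the sum over the list ran from 230 to 983 TPM in E14Tg2a and from 218 to 543 TPM in ΔK9.2. The median of the list was -0.86 in the first pair, -0.09 in the second and -0.32 in the third, and over the same 18 genes it turned to 0.32 without E14Tg2a replicate 1, with 16 above 0. Without both libraries numbered 1 it was -0.22, with 13 below 0. In bulk RNA, fewer cells of a type and less RNA per cell cannot be told apart. The part of these markers in the other differences of that library was not tested.

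Of the remaining cell type lists, only the fibroblast list had sums that did not overlap between the lines. Mesoderm markers summed to between 4.12 and 13.4 TPM in E14Tg2a and between 7.42 and 9.26 TPM in ΔK9.2. Trophoblast markers summed to between 37.3 and 168 TPM in E14Tg2a and to between 58.7 and 67.8 TPM in ΔK9.2, and neural markers to between 64.0 and 73.0 TPM and between 60.8 and 82.6 TPM. The 11 fibroblast markers, of which 4 were tested, summed to between 87.3 and 94.3 TPM in E14Tg2a and to between 52.4 and 75.3 TPM in ΔK9.2, which do not overlap, and none was called. Most of that sum was *Vim*, the vimentin of intermediate filaments, at 71.1, 85.5 and 79.3 TPM in E14Tg2a and 60.3, 58.2 and 45 TPM in ΔK9.2 (-0.53, adjusted p = 0.188 in limma, 0.0612 with the block). *Col1a1*, a fibrillar collagen chain on this list, was at 3.04, 0.474 and 0.567 TPM against 0.328, 0.352 and 0.371 TPM. Genes of the two-cell-like state had a median of 0.09 over 9 tested genes.

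Medians of several lists changed when E14Tg2a replicate 1 was left out, and in part differently when both libraries numbered 1 were, over the same tested genes. The median of all genes was 0.10 in the first case and 0.07 in the second. The two-cell-like list went to 0.54, with all 9 genes above 0, in the first case and was at 0.05 in the second. Trophoblast markers turned from -0.03 to 0.45 and 0.38, neural markers from -0.04 to 0.17 and 0.32, mesoderm markers from -0.04 to 0.26 and 0.25 and MHC class I presentation from -0.11 to 0.09 and 0.07. Fibroblast markers went from -0.26 to 0.02 and -0.08. Cholesterol and fatty acid synthesis went from 0.09 to 0.21 and 0.17, and mitochondrial protein genes from 0.09 to 0.26 and 0.17. The FGF-ERK list was at -0.004 and -0.07 and the cell cycle and p53 list at -0.01 and -0.07. Glycolysis and hypoxia were at 0.09 and 0.05, the LIF and STAT3 list at 0.04 and 0.03, the core list at 0.04 and 0.03 and the small nucleolar RNA host genes at 0.001 and -0.055.

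Chromatin and housekeeping lists showed few calls. None of 23 genes of DNA methylation and H3K9 methylation was called in either fit, and their median was 0.11. Among 25 imprinted genes the median was 0.11 and none was called. Replication-dependent histone genes, many of which are near-identical copies without poly-A tails, had a median of -0.39 with 41 of 47 below 0 and none called, where 38.7% of all genes lay below 0. In 8 of the 47 the libraries were lower without overlap, against 4.74% of all genes. Of 82 cytosolic ribosomal protein genes, with a median of -0.001, *Rpl10l* was called higher and *Rpl22l1* lower with the block, where 0.607% and 0.593% of all genes were. *Rpl22l1*, a paralogue that replaces Rpl22, measured 646, 659 and 750.2 TPM in E14Tg2a and 537, 449 and 616 TPM in ΔK9.2 (-0.37, adjusted p = 0.0487 in limma with the block, 0.371 without). Cholesterol and fatty acid synthesis (22 genes, median 0.09), MHC class I presentation (9, -0.11), germ cell genes (12, 0.16), mitochondrial protein genes (11, 0.09) and small nucleolar RNA host genes (17, 0.02) had no call in either fit.

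The direct comparison with ΔK9.1 called more genes than that with E14Tg2a, in the same fit over the 9 undifferentiated libraries. Of 14504 genes, 130 were higher (0.896%) and 145 lower (1%) in ΔK9.2 without the block, and 680 (4.69%) and 865 (5.96%) with it. With only the 6 libraries of the clones, 80 were higher and 104 lower without the block. The counts fell to between 0 and 76 higher and between 0 and 28 lower when single libraries of the clones were left out. Among genes higher in ΔK9.2 were 4 members of the X-linked Xlr cluster, which is expressed in germ cells and lymphoid cells and whose copies are alike in sequence. *Xlr5a* was at 10.7, 11.8 and 8.75 TPM in ΔK9.2 and at 2.28, 0.264 and 0.143 TPM in ΔK9.1, with E14Tg2a between them at 4.36, 2.12 and 3.45 TPM (difference of the clones 2.76, adjusted p = 0.0193, limma). *Xlr3c*, *Xlr3b* and *Xlr5b* differed by 2.64, 2.63 and 2.27. Among genes lower in ΔK9.2 was *Pof1b*, an actin-binding gene, at -1.43 (adjusted p = 0.0395, limma). *Klf2* was lower in ΔK9.2 than in ΔK9.1, where it was at 268, 253 and 277 TPM (-0.53, adjusted p = 0.0193, limma).

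In the segments the clones were close to each other. The chromosome 14 segment stood at -0.71, -0.52 and -0.58 in the ΔK9.2 libraries and at -0.77, -0.70 and -0.71 in those of ΔK9.1, and the chromosome 5 segment at 0.32, 0.29 and 0.37 against 0.37, 0.38 and 0.44. Relative to all genes, ΔK9.2 differed from ΔK9.1 by a median of 0.11 on the first segment and -0.04 on the second. *Pla2g1b* departed from this, at 99.2, 68.3 and 86.3 TPM in ΔK9.1, a difference of 0.67 that was called only with the block (adjusted p = 0.00163, against 0.0994 without it, limma). *Lgals3*, a galectin gene just before the chromosome 14 segment, was called higher in ΔK9.2 than in E14Tg2a with the block, at 31.8, 24.6 and 32.3 TPM against 22.8, 14.3 and 23.7 TPM, and in ΔK9.1 it was at 14.2, 9.07 and 12.9 TPM.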

How the data were processed

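The members and gene lists were chosen with earlier results of these data known. Stranded paired-end poly-A reads were aligned to mm10 with STAR and turned by the authors into the deposited TPM with RSEM. Versions are not given in the sources used here, and the study's methods say that outliers in a principal component analysis were left out before TPM were computed, without naming them. The table also holds 22 columns of the authors' DESeq2 log2 fold changes and FDR values between lines and days, which were not used. Depth per library is unknown from TPM.

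Of 16336 listed genes, the 14504 whose group mean reached 1 TPM in any of the 3 undifferentiated lines were tested in R 4.3.3 with limma 3.58.1 (trended empirical Bayes), on log2(TPM + 1) over 9 undifferentiated libraries, with Benjamini-Hochberg adjustment. The study's day 0 thresholds were kept (adjusted p under 0.05, log2 fold change past 0.3). Pairing by replicate number comes from the study's description of parallel assays, and same-numbered libraries deviated together, by the correlations given above. Positions on mm10 were looked up by symbol in GENCODE M21 (16078 genes, 98.4%), and 34 symbols with several positions were left out. Medians by position used genes averaging 5 TPM or more, windows of 10 Mb with at least 20 genes and steps of 2 Mb. Promoter sequence came from RefSeq on GRCm38.p6.

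Genes were named by a rule: *Nanog* and its neighbours, genes called without the block, the 12 highest and 12 lowest with the block whose lines do not overlap and whose higher group reaches 5 TPM, members of lists that were called, most abundant or most different, and the largest differences from ΔK9.1. Other named genes were chosen after their values were seen. Alternatives were the block, rescaling by the median ratio, a minimum of 5 TPM or none, a pseudocount of 0.1, other sets of libraries and each library of the lines compared left out. The block with rescaling, the block without each replicate number, the list and segment medians without E14Tg2a replicate 1, and the list medians without both libraries numbered 1, were added after the data were seen. The fits were tested on simulated data with the spread and replicate effects of the day 0 libraries.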

Additional observations from a re-analysis of the deposited data

Results flagged for a closer look

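Several named genes differed between the clones or between days by a test of the difference itself, from limma with Benjamini-Hochberg adjustment over all genes tested.

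Between the clones on day 0, ΔK9.2 minus ΔK9.1 was 1.24 for *Lgals3*, 1.04 for *Gbx2*, 1.01 for the imprinted noncoding RNA *Rian*, 0.88 for *Snhg14*, 0.42 for *Asns* (asparagine synthetase, an ATF4 target), 0.37 for *Trim28* (the KAP1 corepressor), -0.38 for *Snhg1*, -0.53 for *Klf2* and -1.21 for *Kif26a*. *Rian* was at 219, 243 and 242 TPM in ΔK9.2, at 138, 107 and 105 TPM in ΔK9.1 and at 238, 196 and 190.1 TPM in E14Tg2a. *Trim28* was at 1066, 967 and 1058 TPM in ΔK9.2 and at 796, 764 and 821 TPM in ΔK9.1.

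Between days, the log2 fold change of ΔK9.2 over E14Tg2a on day 8 minus that on day 0 was 1.61 for *Nanog* (adjusted p = 0.0437), 2.93 for *Gbx2*, 1.77 for *Tdh* and -1.07 for *Itm2b*.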

How the results depend on the processing

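Depth is unknown, ΔK9.2 is 1 clone, and with 3 libraries against 3 the number of calls follows single libraries and the choice of the spread. Against E14Tg2a, the 1 higher and 11 lower genes became 2 and 18 with a minimum of 5 TPM, 2 and 7 with no minimum, 3 and 15 after rescaling, 13 and 31 over all 33 libraries, and 1 and 1 with only the 6 libraries compared. In the fit with the replicate block they were 88 and 86, with the block and rescaling 70 and 103, and with the block over the 6 libraries 2 and 3. Leaving out 1 of the 6 libraries compared gave 0 to 69 higher and 1 to 77 lower genes, a range that does not cover the ΔK9.1 libraries. The block gave 440 and 251 without replicate number 1, 1 and 2 without number 2, and 0 and 0 without number 3.

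Against ΔK9.1, the 130 higher and 145 lower genes became 120 and 102 with a pseudocount of 0.1, 85 and 100 with no minimum, 247 and 228 after rescaling, and 80 and 104 with only the 6 libraries compared. With the replicate block they were 680 and 865, and over the 6 libraries alone 703 and 1008. Leaving out 1 library of the clones gave 0 to 76 higher and 0 to 28 lower genes.

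Leaving out 1 library moved the median of chromosome 14 between -0.34 and -0.19, of its window from 70 to 80 Mb between -0.81 and -0.69 (-0.82 with a pseudocount of 0.1), of that from 60 to 70 Mb between -0.70 and -0.54, of chromosome 5 from 110 to 120 Mb between 0.25 and 0.31, of chromosome 4 from 140 to 150 Mb between 0.075 and 0.16 and of the mitochondrial genome between 0.029 and 0.24. That of chromosome 8 moved between -0.27 (without E14Tg2a replicate 1) and -0.11 (without E14Tg2a replicate 2). None of these changed sign.

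The named genes whose difference turned direction were not called in either fit. Over the libraries left out 1 at a time, *Lama1* ran from -0.50 to 0.92, *Sox17* from -1.38 to 0.47, *Sparc* from -0.67 to 0.36, *Col4a1* from -1.50 to 0.18, *Gata4* from -1.47 to 0.10, *Gata6* from -1.59 to 0.064, *Slc2a3* from -0.15 to 0.076, *Pou5f1* from -0.082 to 0.10 and *Cdkn1a* from -0.25 to 0.077. The top of each range for the endoderm markers and *Slc2a3* is the value without E14Tg2a replicate 1. With the block less 1 replicate number, *Lama1* was at 0.45 and *Slc2a3* at 0.050 (without number 1), and *Pou5f1* at 0.041 and *Cdkn1a* at 0.00043 (without number 3). The cause was not tested.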
